A study of Komagataella phaffii with 9 samples.

Results

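In the yeast *Komagataella phaffii*, 67 of the 5344 sequences counted were higher with overexpression of the Gal4-like regulator *CRA1* and averaged near the control level when *CRA1* was deleted. They were chosen on CPM (a gene's estimated count per 1000000 counts of the library) by 4 conditions. At least 1 strain averaged 20 or more counts, no control library reached the lowest overexpression library, the mean ratio of overexpression to control was 2 or more, and the mean ratio of deletion to control lay between 0.67 and 1.5. Reporter and marker sequences, mitochondrial genes and a fixed set of identifiers were left out, which removed 5 genes that otherwise met the conditions. The count minimum kept 2216 sequences, of which 328 (14.8%) had every overexpression library above every control library. A ratio of 2 or more was reached by 250 of those, and 72 of them had a deletion ratio inside the limits. Because these ratios chose the genes, the levels in the 3 strains are a description and carry no test.

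The study asked which transcripts depend on *CRA1*. It compared a *CRA1* overexpression strain (OE), a *Δcra1* knockout strain (KO) and a control strain (Control), all derived from CBS7435 and all carrying an eGFP reporter gene driven by the promoter of the glyceraldehyde-3-phosphate dehydrogenase gene. Each strain was 1 transformant, so a change particular to that clone cannot be told apart from an effect of its *CRA1* allele. The deletion was made with a split marker cassette. For each strain 3 shake flask cultures were sampled in exponential growth on 5 g L−1 glucose, after a preculture in rich medium with Zeocin, and poly(A)-enriched RNA was sequenced.

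Gal4-like proteins are fungal transcription factors with a zinc cluster that binds DNA. In baker's yeast Gal4 switches on the genes for the use of galactose, a sugar that *K. phaffii* does not use. Amino acid synthesis and ribosome production, to which several of the genes described here belong, are large consumers of carbon and energy in growing yeast. In *S. cerevisiae* many amino acid synthesis genes are under general control by the activator Gcn4.

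The libraries held 106345 to 223824 counts, with the Control libraries the smallest. *CRA1* itself had 810, 95 and 316 counts in OE 1, OE 2 and OE 3, 0 counts in each KO library and 11 counts in each Control library. The KO zeros allow a share of up to 0.00134% to 0.00155% of a library. *CRA1* was thus 3790, 829 and 2272 CPM in OE 1, OE 2 and OE 3, against 101, 101 and 103 CPM in Control, and the OE libraries differed widely among themselves. Names and descriptions came from the study's supplementary annotation, which lists only genes that passed its own cutoffs in these libraries. It names 43 of the 67 genes and describes 5 more without a symbol, and the other 19 are known here by identifier only.

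Together the 67 genes took 3.12%, 2.82% and 3.20% of all counts in OE 1, OE 2 and OE 3. In KO they took 0.890%, 0.940% and 1.01%, and in Control 0.913%, 0.805% and 0.876%. The OE share was above that of every KO and every Control library. The ratio of OE to Control ranged from 2.01 to 25.5 with a median of 3.22, against a median of 0.959 over all genes past the count minimum. The ratio of KO to Control ranged from 0.687 to 1.46 with a median of 1.11, and all genes had a median of 1.101. The ratio of OE to KO, which follows in part from the conditions, had a median of 2.64 and a range of 1.41 to 34.3, and all genes had a median of 0.891. The 3 comparisons share libraries, so they do not count as separate evidence.

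**Figure D1:**
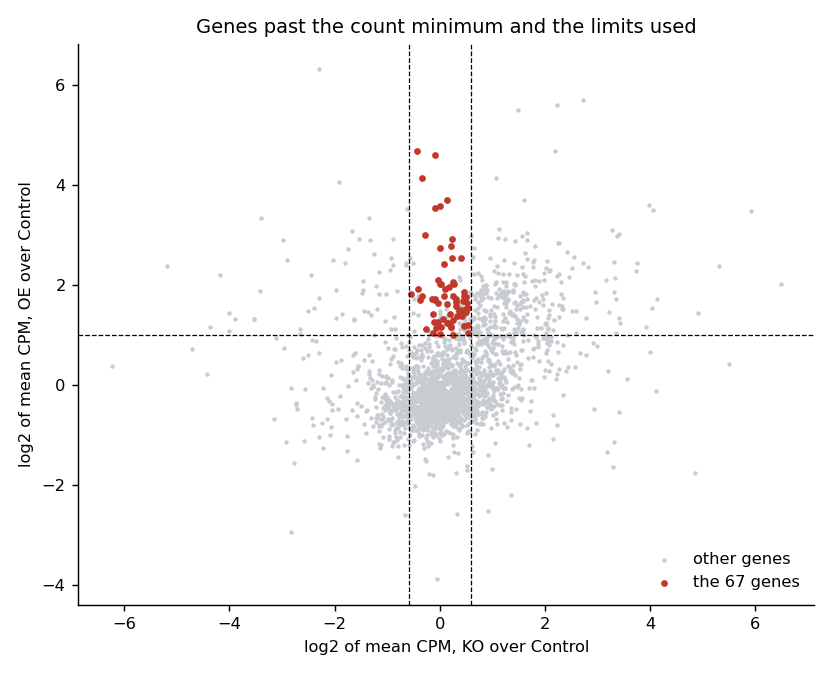
Log2 ratio of mean CPM in OE over Control (vertical axis) against KO over Control (horizontal axis) for 2214 genes past the count minimum, each point 1 gene, with 2 genes left off because a strain had 0 counts. Dashed lines mark the limits used; the 67 genes (red) fill a column reaching a log2 ratio of 4.67, and grey points inside the same column had overlapping libraries or belong to the identifiers left out.

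A small group stood far above the rest. PP7435_Chr1-0718, on chromosome 1, is described as a conserved hypothetical protein with a RING-type zinc finger domain and no counterpart in *S. cerevisiae*. It had 459, 820 and 841 CPM in the OE libraries, 14.4, 20.7 and 26.8 CPM in KO and 18.4, 55.3 and 9.40 CPM in Control. The lowest OE library was well above the highest Control library, and KO and Control overlapped. The ratio of OE to Control was 25.5, but it rests on few Control counts (2, 6 and 1), and the ratio of pooled counts had a 95% interval of 12.4 to 52.4. Without Control 2 the ratio was 50.8 on 3 Control counts, with an interval of 16.0 to 231. That interval, exact for a binomial share, covers counting error only, as do all such intervals and limits given here. For KO over Control the interval was 0.295 to 1.98, so a level well below or above Control is compatible with these counts. Among genes described below it was 0.449 to 2.94 for *ARO10-2*, 0.382 to 2.36 for *WSC4* and 0.435 to 3.83 for *FTH1-2*. It was narrower for *SEC39*, at 0.903 to 1.58.

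*TCP1*, which encodes the alpha subunit of the cytosolic chaperonin that folds actin and tubulin, had 1268, 1789 and 1417 CPM in OE, 38.3, 82.7 and 53.6 CPM in KO and 73.7, 64.5 and 47.0 CPM in Control. *GAT1*, a GATA-type activator of genes for the use of poor nitrogen sources, had 1086, 1614 and 1697 CPM in OE, 81.5, 67.2 and 49.1 CPM in KO and 101, 64.5 and 84.6 CPM in Control. In both genes the 3 OE libraries formed a group of their own, and KO and Control could not be separated. The ratios of OE to Control were 24.1 for *TCP1* and 17.6 for *GAT1*, with counting intervals of 15.0 to 38.4 and 11.4 to 25.6.

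*ARO10-2*, a phenylpyruvate decarboxylase of the Ehrlich pathway that breaks down aromatic amino acids to fusel alcohols, had 262, 349 and 352 CPM in OE, 33.5, 25.8 and 22.3 CPM in KO and 27.7, 18.4 and 28.2 CPM in Control. *POL5*, a nucleolar protein required for rRNA synthesis, had 842, 1256 and 1345 CPM in OE, 95.8, 77.5 and 116 CPM in KO and 101, 55.3 and 132 CPM in Control. *WSC4*, an endoplasmic reticulum membrane protein of protein translocation, had 290, 349 and 331 CPM in OE, 9.58, 51.7 and 17.9 CPM in KO and 18.4, 27.6 and 37.6 CPM in Control. All 3 again had every OE library above the other 6, with OE over Control ratios of 13.0, 11.9 and 11.6. *SAK1*, an upstream kinase of the Snf1 complex that acts in glucose signalling, had a ratio of 7.99, with 402, 619 and 683 CPM in OE, 47.9, 46.5 and 80.4 CPM in KO and 73.7, 64.5 and 75.2 CPM in Control.

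*FTH1-2*, *STE3* and *ECM18* complete the 10 largest ratios. *FTH1-2*, a putative vacuolar iron transporter, had 154, 122 and 144 CPM in OE, 19.2, 10.3 and 35.7 CPM in KO and 46.1, 0 and 9.40 CPM in Control. Its ratio of 7.58 has a counting interval of 3.37 to 21.8, since the Control libraries held 5, 0 and 1 counts. Without Control 1 the ratio was 29.8 on 1 Control count, with an interval of 5.34 to 1235, and without Control 2 it was 5.05. *STE3*, the receptor for the a-factor mating pheromone, had 70.2, 183 and 388 CPM in OE, 47.9, 41.3 and 17.9 CPM in KO and 27.7, 27.6 and 37.6 CPM in Control. OE 1 was thus closer to KO 1 than to OE 3, and the ratio of 6.91 was 4.09 without OE 3. *ECM18*, a protein of unknown function grouped with lipid metabolism, had 402, 524 and 568 CPM in OE, 105, 56.8 and 62.5 CPM in KO and 64.5, 73.7 and 84.6 CPM in Control, a ratio of 6.70 with no overlap between OE and the other strains.

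**Figure D2:**
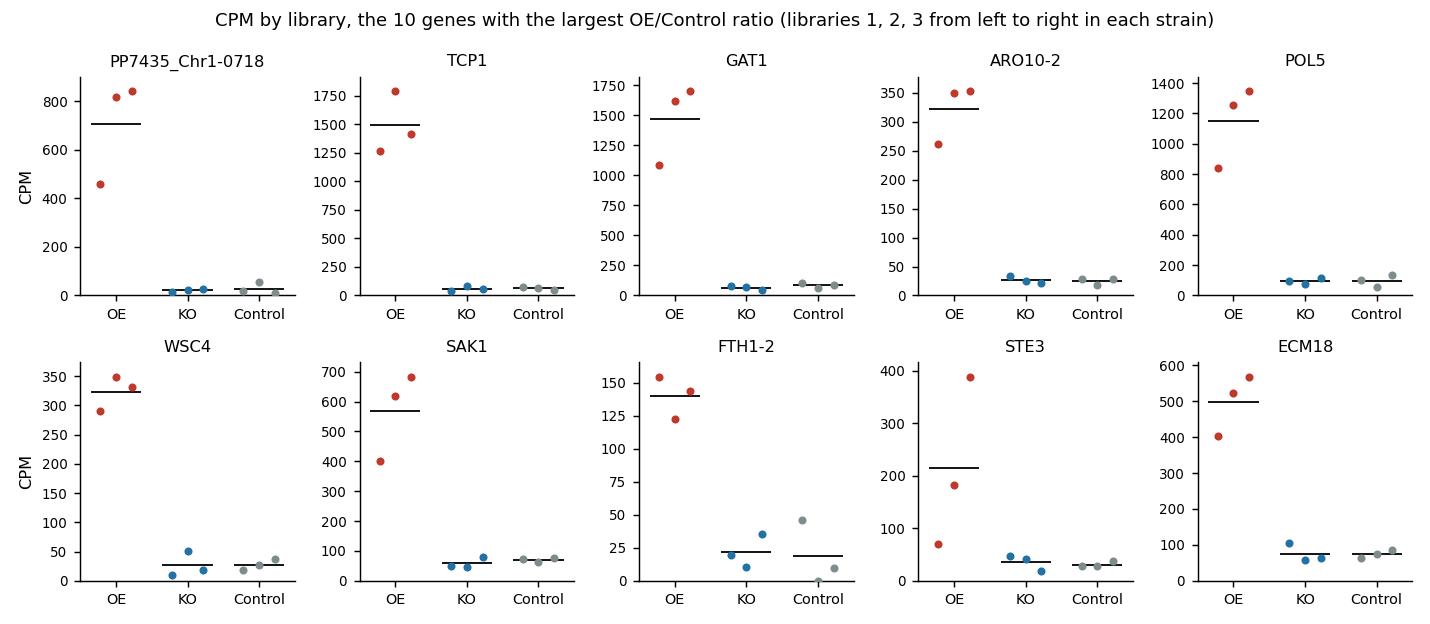
CPM (vertical axes, from 0, each gene on its own scale) in every library of OE, KO and Control for the 10 genes with the largest OE over Control ratio; points are libraries 1, 2 and 3 from left to right and bars are strain means. In 9 of the 10 genes the highest OE library was under 2 times the lowest, and in *STE3* it was 5.53 times the lowest.

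Several genes were raised less but were already well expressed. *XDE1*, a xanthine dehydrogenase of purine breakdown, had the most reads, with 2438, 3874 and 3933 CPM in OE, 1054, 863 and 885 CPM in KO and 1060, 1087 and 950 CPM in Control. Its ratio of OE to Control was 3.31, and KO and Control overlapped. *SEC39*, a subunit of the Dsl1 tethering complex that receives vesicles at the endoplasmic reticulum, had 1175, 1509 and 1359 CPM in OE, 268, 227 and 326 CPM in KO and 212, 212 and 273 CPM in Control, a ratio of 5.80. *DHG2*, annotated as an L-rhamnose dehydrogenase, had 622, 1082 and 1035 CPM in OE, 326, 269 and 250 CPM in KO and 286, 276 and 235 CPM in Control, a ratio of 3.44. In all 3 genes OE stood clear of both other strains.

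Lower ratios were seen for *TPD3*, the scaffold subunit of protein phosphatase 2A, and for *ADH900*, an alcohol dehydrogenase related to formaldehyde dehydrogenase. *TPD3* had 622, 820 and 705 CPM in OE, 316, 362 and 308 CPM in KO and 304, 304 and 357.3 CPM in Control, a ratio of 2.22. *ADH900* had 1048, 715 and 1115 CPM in OE, 498, 522 and 478 CPM in KO and 433, 341 and 517 CPM in Control, a ratio of 2.23. No KO or Control library of either gene reached the lowest OE library. *EFM2*, a methyltransferase of translation elongation factors, averaged 670 ± 183 CPM in OE, 192 ± 45.0 CPM in KO and 204 ± 74.3 CPM in Control (SD, n = 3 each).

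Reads per gene also depend on coding length, so levels of different genes are compared as TPM, which corrects for length and sums to 1000000 in a library. Mean TPM in OE ranged from 15.98 to 1458 over the 67 genes with a median of 125, against a median of 147 over all genes past the count minimum. In Control the median was 24.8 TPM against 125 TPM over all genes, a lower level that follows in part from the count minimum, which genes with few Control counts could pass through OE alone. The highest mean OE levels per length were those of the ribosomal protein genes *RPL15B* (1458 TPM) and *RPL24B* (1403 TPM), of *SSP2* (1188 TPM), *CPR1* (1143 TPM) and *DHG2* (1035 TPM). *SSP2* encodes a protein of the spore wall in *S. cerevisiae*, and *CPR1* is the cytosolic cyclophilin.

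Genes that the study's annotation places in amino acid metabolism formed the largest annotated group, 10 of the 48 annotated genes (20.8%), against 43 of the 714 identifiers in it (6.02%). That annotation holds genes selected on these libraries, so the shares are a description. They include the shared steps from aspartate to threonine and methionine (*HOM3*, aspartate kinase, and *HOM2*, aspartate semialdehyde dehydrogenase) and homoserine kinase *THR1*. The branched-chain pathway is represented by acetolactate synthase *ILV2*, dihydroxyacid dehydratase *ILV3* and isopropylmalate dehydrogenase *LEU2*. *ARG2*, acetylglutamate synthase, starts ornithine synthesis, *SER3* starts serine synthesis and *MIS1-2* is a mitochondrial enzyme of one-carbon metabolism on tetrahydrofolate. *BNA5*, kynureninase, makes NAD precursors from tryptophan.

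*LEU2* had 402, 262 and 295 CPM in OE, 81.5, 56.8 and 80.4 CPM in KO and 46.1, 73.7 and 103 CPM in Control. *ILV3* had 445, 140 and 223 CPM in OE, 52.7, 67.2 and 112 CPM in KO and 111, 46.1 and 37.6 CPM in Control. *ILV2* had 328, 69.8 and 173 CPM in OE, 38.3, 87.8 and 71.5 CPM in KO and 46.1, 64.5 and 56.4 CPM in Control. *LEU2* was clear of both other strains, *ILV3* only just, and the lowest OE library of *ILV2* was below KO 2 and KO 3. Their ratios of OE to Control were 4.30 for *LEU2*, 4.15 for *ILV3* and 3.41 for *ILV2*. The ratio of *ILV3* was 6.43 without Control 1, and that of *ILV2* 2.18 without OE 1.

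*HOM3* had 360, 87.3 and 151 CPM in OE, 62.3, 36.2 and 80.4 CPM in KO and 55.3, 64.5 and 28.2 CPM in Control. *HOM2* had 749, 201 and 252 CPM in OE, 81.5, 160 and 98.3 CPM in KO and 83.0, 111 and 122 CPM in Control. *THR1* had 299, 113 and 151 CPM in OE, 57.5, 46.5 and 35.7 CPM in KO and 36.9, 36.9 and 65.8 CPM in Control. In each of the 3 threonine pathway genes OE 1 was highest, OE 3 next and OE 2 lowest, and no OE library overlapped KO or Control. The ratios of OE to Control were 4.04 for *HOM3*, 3.80 for *HOM2* and 4.04 for *THR1*. Without OE 1 the ratio was 2.41 for *HOM3* and 2.15 for *HOM2*.

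*SER3* was the most raised of the amino acid genes, with 590, 122 and 381 CPM in OE, 28.7, 87.8 and 98.3 CPM in KO and 101, 55.3 and 47.0 CPM in Control, a ratio of 5.37. *MIS1-2* had 426, 166 and 266 CPM in OE, 105, 87.8 and 130 CPM in KO and 83.0, 129 and 47.0 CPM in Control, a ratio of 3.31. *ARG2* had 229, 201 and 288 CPM in OE, 67.1, 87.8 and 71.5 CPM in KO and 64.5, 111 and 56.4 CPM in Control, a ratio of 3.10. *ARG2* was the more even of these, and in *SER3* the lowest OE library was close to the highest Control library.

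Of a list of 16 genes of branched-chain amino acid, threonine, lysine and arginine synthesis, 7 are among the 67. In OE against Control, edgeR called 7 of its 12 tested genes higher and none lower, with a median log2 ratio of 2.11 against 0.018 over all genes tested. Of those 7 calls, 4 are among the 67 genes (*LEU2*, *ILV3*, *THR1* and *ARG2*). In OE against KO it called 14 of 16 higher and none lower, and in KO against Control 2 of 11 higher and 2 lower. Over all genes, 7.15% were called higher and 0.806% lower in OE against Control, 9.8% higher and 5.67% lower in OE against KO, and 13.1% were called higher and 8.53% lower in KO against Control. Of the 10 listed genes of sulfur amino acid, serine and glycine metabolism, *SER3* and *MIS1-2* are among the 67, and edgeR called 3 of the 7 tested higher and none lower in OE against Control. These lists were drawn from the study's annotation, so their counts are not independent evidence of a direction.

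**Figure D3:**
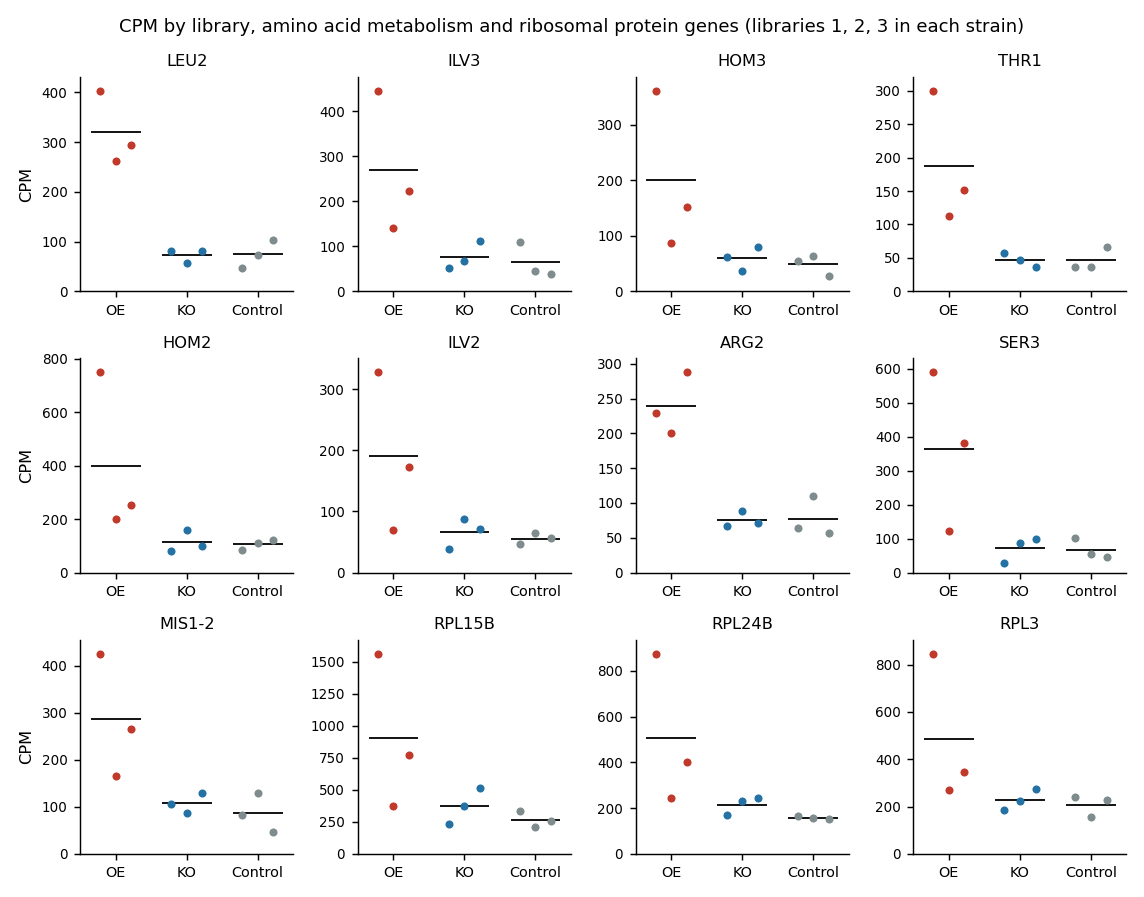
CPM (vertical axes, from 0, each gene on its own scale) in every library of OE, KO and Control for 9 amino acid metabolism genes and the ribosomal protein genes *RPL15B*, *RPL24B* and *RPL3*; points are libraries 1, 2 and 3 from left to right and bars are strain means. OE 1 is the highest library in all of them except *ARG2*, and OE 2 is the lowest OE library in all 12.

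The ribosomal protein genes were graded in the same way. *RPL15B* had 1563, 375 and 769 CPM in OE, 230, 377 and 514 CPM in KO and 332, 212 and 254 CPM in Control. *RPL24B* had 875, 244 and 403 CPM in OE, 168, 232 and 246 CPM in KO and 166, 157 and 150 CPM in Control. *RPL3* had 847, 270 and 345 CPM in OE, 187, 222 and 273 CPM in KO and 240, 157 and 226 CPM in Control. In all 3 genes, which encode proteins of the large ribosomal subunit, OE 2 lay inside the KO range. Their ratios of OE to Control were 3.39, 3.22 and 2.35, and without OE 1 they were 2.15, 2.05 and 1.48. Of 19 cytosolic ribosomal protein genes listed, these were the only 3 among the 67. In OE against Control edgeR called 1 of the 18 tested (5.56%) higher, which is none of these 3, against 7.15% of all genes. The list's median log2 ratio in that comparison was 1.79, against 0.018 over all genes tested. In OE against KO edgeR called 11 of the 19 higher and none lower, against 9.8% of all genes called higher. This list was also drawn from the study's annotation, which holds genes selected on these libraries. Its median and calls therefore do not describe ribosomal protein genes as a class.

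Other single genes of central processes were also highest in OE 1. *ATP2*, the beta subunit of the mitochondrial ATP synthase, had 997, 323 and 453 CPM in OE, 196, 377 and 335 CPM in KO and 212, 212 and 216 CPM in Control. *CPR1* had 660, 279 and 360 CPM in OE, 264, 191 and 188 CPM in KO and 194, 111 and 179 CPM in Control. *URA1*, dihydroorotate dehydrogenase of pyrimidine synthesis, had 356, 157 and 295 CPM in OE, 28.7, 82.7 and 49.1 CPM in KO and 92.2, 55.3 and 65.8 CPM in Control. All 3 had OE 2 as the lowest OE library, and it was below KO 2 and KO 3 in *ATP2* only. The ratio of OE to Control was 2.77 for *ATP2*, and 1.82 without OE 1. *HMG1*, HMG-CoA reductase of sterol synthesis, averaged 203 ± 77.7 CPM in OE, 79.9 ± 19.5 CPM in KO and 64.7 ± 32.9 CPM in Control (SD, n = 3 each). Of 15 listed chaperone genes *TCP1* and *CPR1* are among the 67. In OE against Control edgeR called these and no other of the 12 tested (16.7%) higher, against 7.15% of all genes. Both were chosen on that contrast. In OE against KO edgeR called 9 of the 15 higher and 2 lower, against 9.8% and 5.67% of all genes. The chaperone list was drawn from the study's annotation too, so these counts are a description. None of the 14 listed genes of glycolysis and alcoholic fermentation is among the 67. In OE against Control edgeR called 13 of these 14 higher and none lower, with a median log2 ratio of 2.78. In KO against Control it called 2 higher and 8 lower, with a median of -1.52, against 13.1% and 8.53% of all genes. This list was drawn from the study's annotation as well.

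Of the other annotated genes, *KAP123*, the importin that carries ribosomal proteins into the nucleus, had 487, 332 and 388 CPM in OE, 139, 191 and 156 CPM in KO and 129, 64.5 and 160 CPM in Control. *CSE1*, which exports importin alpha, had 140, 218 and 187 CPM in OE, 19.2, 31.0 and 76.0 CPM in KO and 55.3, 9.21 and 94.0 CPM in Control. Both had OE clear of the other strains, with ratios of OE to Control of 3.41 and 3.44. The ratio of *CSE1* was 5.64 without Control 3. *FRE3*, a ferric reductase, had a ratio of 4.04, the polyamine transporter gene *TPO3* one of 3.23 and the phosphate transporter gene *PHO84-2* one of 2.166. *OSM1*, a fumarate reductase that reoxidises NADH, was the least even of all, with 262, 43.6 and 122 CPM in OE, 43.1, 41.3 and 13.4 CPM in KO and 18.4, 36.9 and 18.8 CPM in Control. OE 2 barely exceeded KO 1 in *OSM1*, and the ratio of OE to Control was 5.78, or 3.36 without OE 1. *ACK1* of the cell wall integrity pathway (3.91), the lipid-binding protein gene *NVJ2* (3.08), the palmitoyl transferase gene *AKR1* (2.67), *BNA5* (3.25) and *PHM7* (2.19) complete the genes with a symbol. Genes described without a symbol were PP7435_Chr4-0612 (2.90) and PP7435_Chr2-0248 (2.40), conserved hypothetical proteins, and PP7435_Chr1-0432 (2.41), with low similarity to a phosphatase-like hydrolase. The 19 genes known by identifier only had ratios of 2.01 to 3.62, so all of the larger ratios belong to annotated genes, which the annotation's own cutoffs favour.

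The genes fell into those that were even across the OE libraries and those that were not, a description that was made after the values were seen. In 31 genes (46.3%) the highest OE library was under 2 times the lowest, and in 36 it was 2 times or more. Of all genes past the count minimum, 61.3% were under 2 times. The even genes took 1.71%, 2.23% and 2.30% of the counts in OE 1, OE 2 and OE 3, 0.576%, 0.541% and 0.562% in the KO libraries and 0.556%, 0.503% and 0.576% in the Control libraries. The uneven genes took 1.41%, 0.586% and 0.902% in OE 1, OE 2 and OE 3, 0.314%, 0.399% and 0.449% in KO and 0.357%, 0.302% and 0.300% in Control. The even genes were thus lowest in OE 1, while the uneven genes were highest there and came closest to KO in OE 2. A low OE 1 is not particular to the even genes, since 51.0% of all genes past the count minimum were lowest there.

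The even genes hold 9 of the 10 largest ratios but 3 of the 10 amino acid genes, while the uneven genes hold 1 and 7. The order OE 1 above OE 3 above OE 2 was found in 5 of the 31 even and 27 of the 36 uneven genes. That makes 32 of 67 (47.8%), against 584 of 2216 (26.4%) of all genes past the count minimum. The order was also found in 80 of the 116 raised genes with a KO over Control ratio above the window (69.0%) and in 16 of the 48 below it (33.3%), so it is not particular to the 67. The *CRA1* level had that order too. The part that the *CRA1* level has in the order was not tested. OE 1 also had the most counts of the OE libraries (213700, against 114609 in OE 2 and 139067 in OE 3), and the part of depth was not tested.

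**Figure D4:**
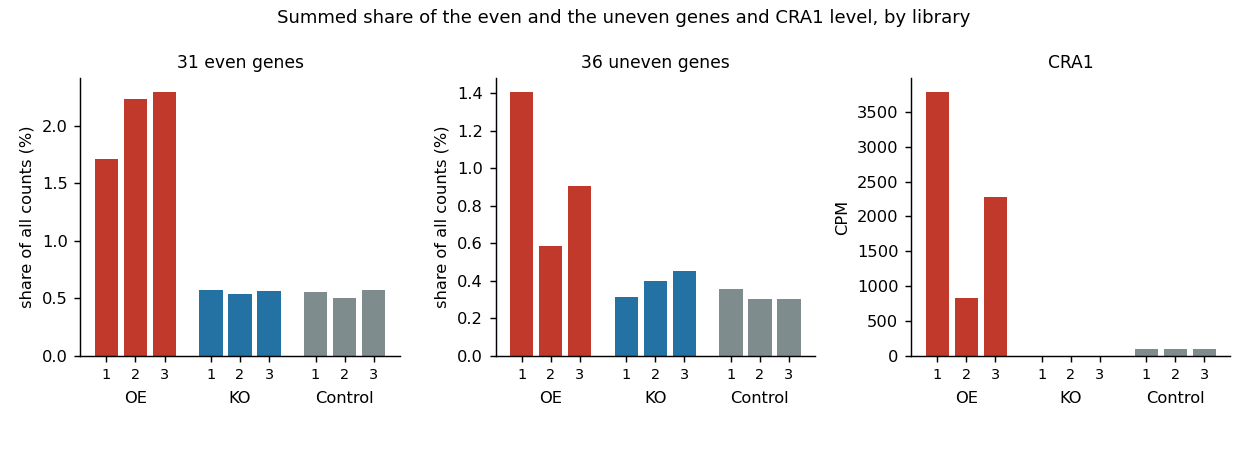
Share of all counts in percent (bars from 0, vertical axes) taken by the 31 even genes (left) and the 36 uneven genes (middle), and *CRA1* in CPM (right), in libraries 1, 2 and 3 of OE, KO and Control. The even genes stand at 1.71% to 2.30% in OE and near 0.5% to 0.6% elsewhere, and the uneven genes and *CRA1* both have OE 1 above OE 3 above OE 2.

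Against KO, 55 of the 67 genes (82.1%) had every OE library above every KO library, against 15.1% of all genes past the count minimum. The 12 that overlapped include *ILV2*, *RPL15B*, *RPL24B*, *RPL3* and *ATP2*. The conditions set OE above Control and KO near Control, so a high share follows from them.

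The edgeR fits repeat the same contrasts with a model of the spread and call a gene at an adjusted p under 0.05 and a log2 ratio of at least 1. In OE against Control, 58 of the 67 passed the filter on low counts and 37 were called higher, against 7.15% of all 1986 genes tested. The genes were chosen on this contrast, so nothing is read from the excess. The count was 64 without OE 2 and 19 without OE 3, and it was 15, 12 and 21 without Control 1, 2 and 3. By evenness, 27 of the 31 even genes were called and 10 of the 36 uneven ones, 27 of which were tested. Evenness is a small spread among the OE libraries, and the test weighs the difference against that spread. More calls among the even genes thus follow in part from the split.

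In OE against KO, 66 were tested and 55 were called higher, against 9.8% of 3071 genes. That count was 27 without KO 2 and 30 without KO 3. The 55 called here and the 55 with no overlap are not the same 55 genes, since for example *RPL15B*, *RPL24B*, *RPL3* and *ILV2* were called although their libraries overlapped. In KO against Control, 45 were tested and edgeR called none, against 21.6% of 2392 genes in either direction. An unadjusted p under 0.05 was reached by 0 of the 45, and DESeq2 also called 0. Since the conditions kept KO close to Control, little else could be found.

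The same measure was also read in a library that the choice had not used. The 3 Control libraries it is set against were used in the choice, so ratios above 1 follow in part from Control values that were low when the genes were chosen. Without OE 1 the conditions chose 45 genes, whose median in OE 1 was 2.97 times the mean of the Control libraries, and 44 of them (97.8%) lay above every Control library there. Without OE 3 they chose 77 genes, with a median of 2.81 in OE 3 and 71 (92.2%) above every Control library. Of all genes past the minimum, 35.6% in OE 1 and 36.6% in OE 3 lay above every Control library.

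OE 2 gave a different picture. Without it 172 genes met the conditions, 66 of which are among the 67, and their median in OE 2 was 1.245 times Control. In OE 2, 76 of the 172 (44.2%) lay above every Control library, against 27.9% of all genes, and 41 of the 172 reached 2 times Control. The number of genes found was therefore set largely by OE 2, and OE 2 is also the library with the lowest *CRA1* level and the fewest counts among the OE libraries. With KO 1, KO 2 and KO 3 left out in turn, 65, 65 and 68 genes were chosen, and their median in the library left out was 0.975, 1.08 and 1.34 times Control. Of these genes 44 (67.7%), 46 (70.8%) and 39 (57.4%) lay between 0.67 and 1.5 in that library, against 56.0%, 52.4% and 51.6% of all genes.

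**Figure D5:**
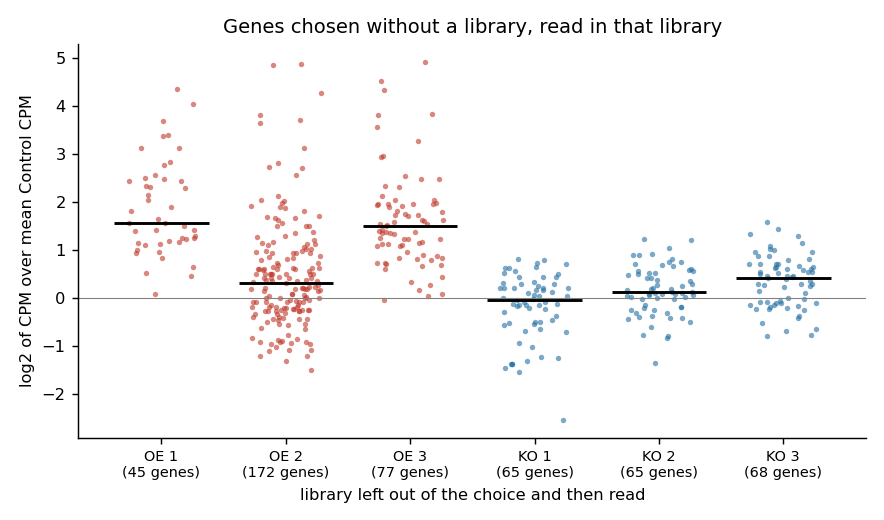
Log2 of CPM over the mean Control CPM (vertical axis) in a library that was left out when the genes were chosen, for OE 1, OE 2, OE 3 and KO 1, KO 2, KO 3; each point is 1 gene, with a sideways scatter for legibility only, and bars are medians. The medians are 1.57, 0.32 and 1.49 in OE 1, OE 2 and OE 3 and lie between -0.036 and 0.42 in the KO libraries.

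At the edges of the conditions the genes differed little from those just outside in the ratio that sets each limit. PP7435_Chr4-0323 (2.01) and *SSP2* (2.04) were just inside the limit on OE over Control, and PP7435_Chr2-0061 (1.998) and PP7435_Chr1-1193 (1.95) just outside. Without Control 2 the ratio of PP7435_Chr4-0323 was 3.25. For the upper limit on KO over Control, PP7435_Chr1-1260 (1.46) and PP7435_Chr3-0303 (1.45) were inside, and PP7435_Chr4-0658 and PP7435_Chr3-0119 (both 1.51) outside. For the lower limit PP7435_Chr1-0991 (0.687) and PP7435_Chr1-0718 (0.744) were inside, and *RVS161-1* (0.659) and PP7435_Chr4-0093 (0.646) outside. PP7435_Chr3-0119 had an OE over Control ratio of 7.88 and PP7435_Chr4-0093 one of 11.5 on 4 Control counts, so strongly raised genes also lie just beyond the KO limits. Among raised genes not left out by name, 116 had a KO over Control ratio above the window and 48 below it.

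The 67 genes were spread over the nuclear chromosomes, with 16 of 678 genes past the count minimum on chromosome 1, 19 of 576 on chromosome 2, 15 of 523 on chromosome 3 and 17 of 434 on chromosome 4. Identifiers in this annotation are numbered by chromosome, and a few of the genes carry neighbouring numbers. *RPL15B* and *SER3* are consecutive, as are PP7435_Chr4-0875 and *RPL3*. PP7435_Chr1-0991, a hypothetical protein with a methyltransferase domain, and *ARG2* are consecutive too, with *EFM2* a little further on. PP7435_Chr1-0991 had 295, 366 and 388 CPM in OE, 71.9, 56.8 and 76.0 CPM in KO and 111, 46.1 and 141 CPM in Control. Between *ARG2* and *EFM2*, PP7435_Chr1-0993 had 7, 0 and 3 counts in OE, 0, 1 and 1 in KO and 0, 1 and 0 in Control, too few to describe.

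Some names carry a suffix that marks a second gene of the same name (*ARO10-2*, *FTH1-2*, *MIS1-2*, *PHO84-2*), and kallisto splits reads shared by similar sequences. All estimated counts of the 67 genes were whole to within 0.01 in every library, so no fractional share of a read was assigned to them. Whether the counting used strand is not given in the sources used here, so reads of overlapping antisense genes cannot be told apart.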

How the data were processed

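Poly(A)-enriched RNA of 9 cultures, 3 per strain, was sequenced as paired-end reads. According to the submitters' notes, the authors sorted, split and trimmed the reads (SAMtools 1.5, Picard 2.17.3-3, Trim Galore 0.4.2) and assigned them with kallisto 0.44.0 to the annotated CBS7435 transcripts. The deposited tables hold kallisto's estimated counts, not normalized, and TPM values that the authors' kallisto run derived from them and the effective lengths. The deposited tables of normalized counts (18 columns) were not used.

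CPM was computed on the library total. Estimated counts were rounded to whole numbers and each pair of strains was fitted over its 6 libraries with edgeR 4.0.16 in R 4.3.3 (filterByExpr, TMM factors, quasi-likelihood test, Benjamini-Hochberg adjustment over all genes tested), after testing the script on simulated data. DESeq2 1.42.0 and other settings were alternatives. Genes named are those with the 10 largest OE over Control ratios, the 10 largest OE CPM, those in a gene list and those next to a limit, besides *CRA1*. Other genes named were chosen after their values were seen. The genes and lists were chosen with earlier results of these data known. The study's methods give the 3 libraries of a strain as separate cultures of 1 transformant, so the spread is that between cultures. At 106345 to 223824 counts per library, 0 counts of a gene are compatible with a share of 3 counts in that total.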

Additional observations from a re-analysis of the deposited data

Results flagged for a closer look

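A marker sequence outside the comparisons gave a signal that the Control libraries lacked. The sequence named Kanamycin averaged 15.0 counts in OE (19, 10 and 16) and 1652 counts in KO (1751, 1526 and 1679), against 0 counts in each Control library, where 0 allows up to 0.00282% of a library. Groups of 3 libraries are too small for a check of single outlying libraries.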

How the results depend on the processing

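The conditions found 81, 84 and 80 genes with TMM-scaled CPM, RLE-scaled CPM and TPM in place of CPM, with 65, 65 and 61 of the 67 among them. They found 27 with a minimum of 50 counts, 38 with a ratio of OE to Control of at least 3, and 44 with a narrower KO over Control window. Leaving out each library in turn gave 45 to 172 genes. Counts of the 67 called higher in OE against Control were 60 in 1 fit over all 9 libraries and 12 with a mean of at least 50 counts, where 17 were tested, and 12 to 64 with a library left out. In OE against KO they were 13 with a mean of at least 50 counts, where 18 were tested, and 27 to 62 with a library left out. KO against Control gave 0 under every alternative, but the conditions kept KO close to Control, so few calls could arise. The median log2 OE over Control in a library left out of the choice, averaged over OE 1 to OE 3, was 1.13 ± 0.70 (SD, n = 3) and ranged from 0.32 to 1.57. For KO it was 0.17 ± 0.23 and ranged from -0.036 to 0.42. With TMM-scaled CPM the OE value was 1.23.

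With the replicate number as a block, 57 genes were called higher in OE against Control, 41 in OE against KO and 0 in KO against Control. Same-numbered OE and Control libraries deviated together with correlations across genes of 0.17, 0.17 and 0.057. Within this pair of strains each correlated best with its own number, a hint from the data and not from the design. The other pairs of strains showed no positive correlation of same-numbered libraries, so the libraries were taken to share only a number. Larger correlations joined OE and KO libraries of different numbers, 0.44 for OE 2 with KO 1 and 0.33 for OE 1 with KO 3. OE 1 with KO 1 gave -0.44 and OE 2 with KO 3 gave -0.33. The source of these shared deviations was not tested.

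The median log2 ratio of KO to Control over all genes past the minimum was 0.14 on CPM, -0.021 with TMM and 0.24 in TPM. The 67 genes moved with it (0.15, -0.015 and 0.26). The 33 named genes gave 297 values of log2 OE over Control under the scalings and with a library left out, and none was reversed. With a library left out no reversal could arise, since the conditions set every OE library above every Control library. A ratio of 2 or more also left the scalings little room for a reversal. Of the 297 values, 7 lay beyond the spread between OE libraries, each with a Control library left out (3 for *FTH1-2*, 2 for *WSC4* and 1 each for PP7435_Chr1-0718 and *ARG2*). Low counts are one limit, as the 67 genes had a median of 74.2 CPM in Control. Beyond the smaller numbers of genes or libraries entered, the cause of these shifts was not tested.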
